A study of Triticum turgidum subsp. durum with 32 samples.

Results

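The middle segment of chromosome 1B was taken as the loci that start at or after position 121357866 and end at or before position 207386741, a stretch of 86.03 Mb, in the A and B genome assembly of the wheat variety Chinese Spring used for mapping. A locus is a putative transcribed range with its own count of reads. Of 1518 loci between these ends, 494 did not reach 3 reads in at least 2 of the 32 libraries and 2 were left out by the selection, which left 1022 members of the 90331 loci of the series that reach this minimum. At that minimum, 18 members had exactly 2 libraries with 3 reads, and 48 loci between the ends had exactly 1 and were not members. The ends were chosen with results of these data known, and the values used are not given in the sources used here. For this reason differences between phyC-null and PHYC wild type are given below as a description: members past the call rule of the series are counted, but no P is given for them and nothing is read from the counts.

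RNA-seq was carried out on the third leaf of 4-week-old plants of the tetraploid wheat Kronos, grown in long days of 16 h light. The 4 lines were phyC-null, which lacks functional copies of the photoreceptor gene PHYC in both the A and B genomes, and its PHYC wild-type sister line, and phyB-null, which lacks functional PHYB in both genomes, and its PHYB wild-type sister line. Each line had 4 libraries in experiment 1 and 4 in experiment 2, or 8 in all. The phyB mutations came from an induced mutant population of Kronos and were each backcrossed 2 times to Kronos before they were combined, and the controls were wild-type sister lines, which are relatives of the mutants and need not be identical to them outside the mutated genes. The 4 libraries of a group are biological replicates per the study's methods. The PHYB and PHYC lines were grown in separate runs, so line and run cannot be told apart, and the 2 PHYC experiments used separate chambers with different ballasts.

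Phytochromes are the red and far-red light receptors of plants, which regulate growth and flowering by changing the expression of many genes. Durum wheat carries an A and a B copy of most genes, and only reads of high mapping quality were counted, so that a 1B locus has a count apart from its copy on 1A. In the middle of large wheat chromosomes recombination is rare, and neighbouring alleles tend to be inherited together in blocks. A locus here can be a gene model of the assembly (names beginning Traes_1BS or Traes_1BL, for the short and long arm) or a range defined only by an assembled transcript, such as those named td-k.

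Libraries held 15961572 to 47695062 counted reads, of which the members took 0.846% to 1.03%, or 148317 to 487934 reads. This share was 0.930% ± 0.020 in phyC-null, against 0.876% ± 0.025 in PHYC wild type, and 1.001% ± 0.020 in phyB-null, against 0.990% ± 0.022 in PHYB wild type (SD, n = 8 each). Between 785 and 938 of the 1022 members had at least 3 reads in a given library, and 654 had them in every library. All levels below are normalized counts, that is, reads over a per-library size factor fitted to all 32 libraries, and they are not scaled for locus length, so levels are compared between lines and not between loci. The 8 PHYB wild-type libraries were not alike on this segment, by their medians over the contrasting loci described below. Experiment 1 replicate 4 had the level of phyB-null, experiment 1 replicate 3 and experiment 2 replicates 1 and 4 had that of PHYC wild type, and the other 4 lay between.

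The members comprise 557 Traes_1BL and 48 Traes_1BS gene models, 323 td-k contigs, 42 Kukri contigs and smaller sets of other transcripts, and their starts lay a median of 44.5 kb apart. Levels were modest at most of them: the median of the 1022 member means was 46.1, 633 averaged at least 20 and 45 averaged at least 1000. The 5 with the highest mean took 23.4% of all reads of the segment. These were Traes_1BL_DD29F7E69, Traes_1BL_EC3E899FE, Traes_1BL_6357FA4B9, Traes_1BL_538A03BEC and td-k55_contig_9130, none of which is annotated in the sources used here. At Traes_1BL_DD29F7E69 the 8 phyC-null libraries ran from 8106 to 32689, against 16633 to 29824 in PHYC wild type, and the phyB-null libraries ran from 9289 to 19792, against 16562 to 42424 in PHYB wild type. Both pairs of ranges overlapped. Traes_1BL_6357FA4B9 ran from 5546 to 6892 in phyB-null, against 6709 to 10633 in PHYB wild type, with an adjusted P of 0.0050 in experiment 1 and 0.256 in experiment 2 (edgeR). Of these 5, td-k55_contig_9130 alone passed in both phyB experiments, with log2 changes of -0.87 ± 0.18 (SE, adjusted P = 0.0063) and -0.80 ± 0.16 (adjusted P = 0.0058).

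The clearest pattern of the segment was a set of loci that were near 0 in 1 PHYC line and well expressed in the other. With a definition made after the values were seen, that the lower PHYC line is at or under 5% of the other in each experiment and the other averages at least 20 in each, 14 members qualified. The large difference between the PHYC lines at these loci follows from that definition, and its values below only describe the selected loci. By the same definition 94 of all 90331 loci qualified, or 0.104%, and 3 of the 3383 loci on the rest of placed chromosome 1B. The 14 loci were spread from 8.17 to 77.0 Mb from the first base of the segment. Of them 7 were high in phyC-null and 7 were low in phyC-null, and the 2 kinds were interspersed along the chromosome. By name 12 of the 14 are td-k contigs and 2 are gene models, Traes_1BL_C54EE9305 and Traes_1BL_355420E27. None is annotated in the sources used here, so no role is given for them.

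Among the 7 that were high in phyC-null, Traes_1BL_355420E27 (1B, 184437994 to 184441690) had the highest level. Its phyC-null libraries had 361, 340, 474 and 433 in experiment 1 and 740, 810, 594 and 752 in experiment 2. In PHYC wild type it had 5.42, 4.77, 8.61 and 8.38 in experiment 1 and 11.7, 1.11, 17.0 and 4.72 in experiment 2. All 8 phyC-null libraries were above all 8 wild-type libraries, as the definition favours. The fitted log2 changes were 5.87 ± 0.24 in experiment 1 and 6.36 ± 0.33 in experiment 2 (SE). Traes_1BL_C54EE9305 (1B, 179754606 to 179758789) ran from 180 to 223 in phyC-null, against 0 to 4.19 in PHYC wild type.

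The 2 neighbouring loci td-k55_contig_23045 and td-k41_contig_25101, at 138987153 to 138987906 and 138989551 to 138991276, were both high in phyC-null. The first had 101 to 163 in phyC-null, against 0 to 3.90 in PHYC wild type. For td-k41_contig_25101 the phyC-null libraries had 276 to 457, against 0 to 3.64 in PHYC wild type. Of the other 3, td-k31_contig_45232 averaged 52.1 in phyC-null, against 0.138 in PHYC wild type, td-k45_contig_45148 averaged 134, against 2.33, and td-k25_contig_29638_td-k51_contig_31611 averaged 212, against 3.51. Each of the 7 had all 8 phyC-null libraries above all 8 PHYC wild-type libraries, a separation that the definition favours.

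The 7 that were low in phyC-null showed the mirror image. At td-k63_contig_81171 (1B, 198367824 to 198370278) the phyC-null libraries had 5.12, 4.55, 1.99 and 2.90 in experiment 1 and 2.49, 2.79, 2.68 and 3.91 in experiment 2. The PHYC wild-type libraries of td-k63_contig_81171 had 248, 224, 186 and 228 in experiment 1 and 266, 178, 198 and 198 in experiment 2. No phyC-null library came near any wild-type library there, which the definition again favours, and the fitted log2 changes were -5.85 ± 0.26 and -6.12 ± 0.25 (SE). td-k21_contig_49894 had 0 in 6 of 8 phyC-null libraries and 2.73 and 2.68 in the others, against 104 to 262 in PHYC wild type. td-k51_contig_85791 averaged 0.706 in phyC-null, against 61.5 in PHYC wild type, td-k35_contig_17271 averaged 0.897, against 54.8, and td-k63_contig_63199 averaged 0.906, against 46.2. td-k21_contig_5614 averaged 0.644 in phyC-null, against 33.8 in PHYC wild type. The lowest wild-type level was that of td-k21_contig_53503, with 0 to 2.79 in phyC-null, against 7.87 to 37.7 in PHYC wild type.

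**Figure D1:**
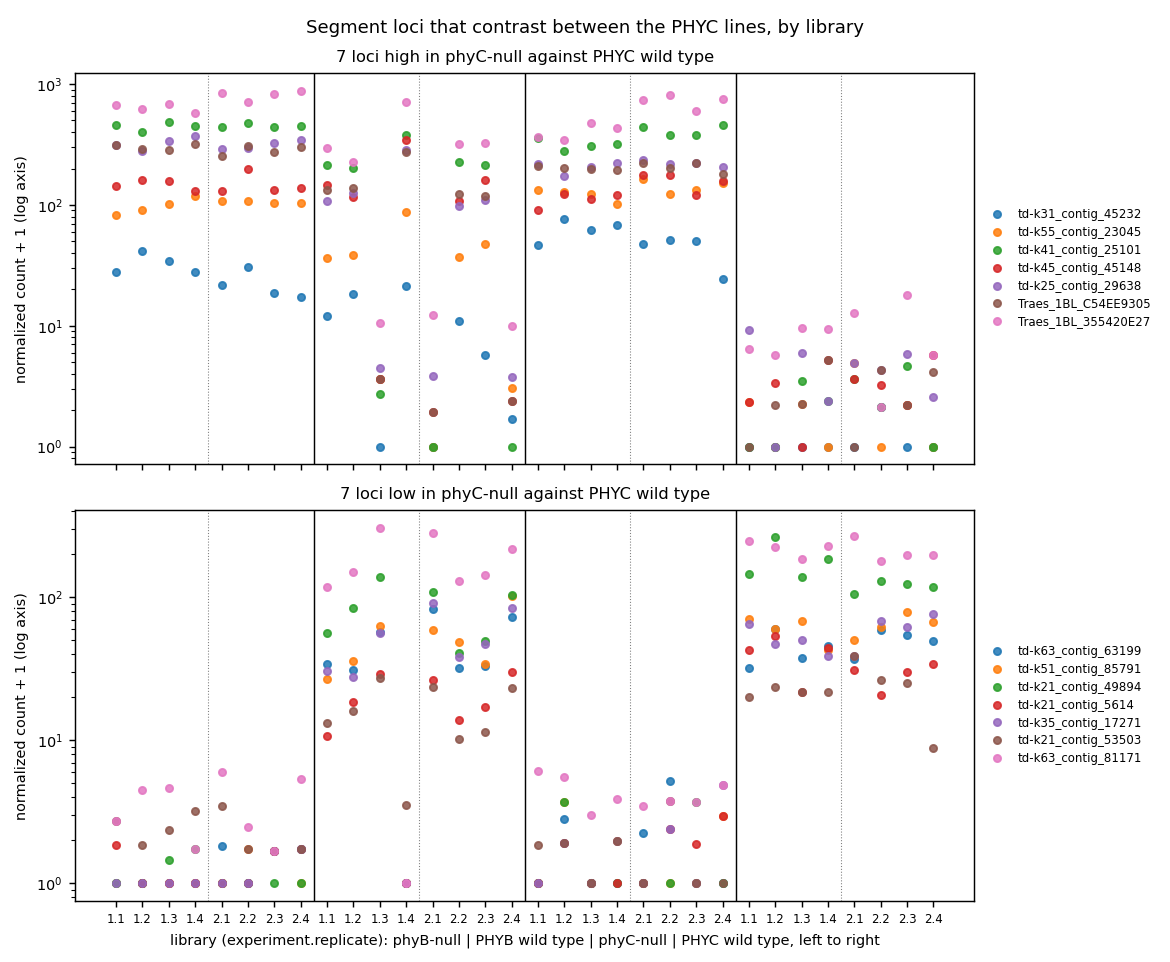
Normalized count plus 1 (log axis) of the 14 contrasting loci in each of the 32 libraries, 7 loci high in phyC-null above and 7 low in phyC-null below; each point is a library, solid lines part the 4 lines and dotted lines the 2 experiments. The 8 phyB-null libraries sit with the 8 phyC-null libraries in both panels, and the PHYB wild-type libraries fall at different heights, with experiment 1 replicate 4 beside phyB-null.

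The PHYB lines, which the definition did not use, were read at the same 14 loci. In phyB-null, all 8 libraries had the kind of level seen in phyC-null. At the loci high in phyC-null, phyB-null means ran from 26.4 at td-k31_contig_45232 to 726 at Traes_1BL_355420E27, and at the loci low in phyC-null they ran from 0.150 at td-k21_contig_49894 to 2.64 at td-k63_contig_81171. At each of the 14 loci phyB-null was thus on the side of phyC-null and not of PHYC wild type.

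PHYB wild type fell between. To put loci of different level on 1 scale, each library was expressed as a percent of the phyB-null mean at the 7 loci high in phyC-null, and as a percent of the PHYC wild-type mean at the 7 loci low in phyC-null. At the 7 high loci the median over loci in experiment 1 was 41.7% for replicate 1, 44.4% for replicate 2, 1.09% for replicate 3 and 88.7% for replicate 4. In experiment 2 it was 0.325% for replicate 1, 41.9% for replicate 2, 44.8% for replicate 3 and 0.936% for replicate 4. Levels of 3 kinds can be seen in these figures, near 0, near the phyB-null level and in between.

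The 7 low loci gave the complement. In experiment 1 the medians were 53.7% for replicate 1, 56.8% for replicate 2, 101% for replicate 3 and 0% for replicate 4. For experiment 2 they were 102% for replicate 1, 60.2% for replicate 2, 53.8% for replicate 3 and 99.99% for replicate 4. By these medians, a library that was near 0 at the high loci was near the PHYC wild-type level at the low loci, and the 4 libraries in between were in between at both kinds. The 1 library at the phyB-null level for the high loci was at 0 for most low loci. The 8 phyB-null libraries had medians of 89.4% to 105% at the high loci and 0% to 1.59% at the low loci, so the spread among PHYB wild-type libraries was far wider than that among phyB-null libraries.

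Experiment 1 replicate 4, and the libraries near 0 at the high loci, kept the same kind of level along the whole distance. The 4 libraries in between were so by median only. At single loci they ran from 17.9% to 108% at the high loci and from 26.3% to 84.5% at the low loci. At the low loci experiment 2 replicate 4 went down to 68.5%. Experiment 1 replicate 4 had 20.4 at td-k31_contig_45232, 8.98 Mb from the first base, 381 at td-k41_contig_25101 and 707 at Traes_1BL_355420E27, 63.1 Mb from it. At the low loci it had 0 at 6 of 7, and 2.55 at td-k21_contig_53503. Experiment 1 replicate 3 had 0, 1.75 and 9.60 at the same 3 high loci, and 305 at td-k63_contig_81171. Replicate 2 of experiment 1 had 17.5, 199 and 226 at the 3 high loci and 149 at td-k63_contig_81171. The 3 libraries near 0 at the high loci stayed at or under 2.62% of the phyB-null mean at all 7 of them. The other 5 varied more between loci: at td-k45_contig_45148 experiment 1 replicate 4 had 230% of the phyB-null mean and the 4 libraries in between had 71.7% to 108%.

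**Figure D2:**
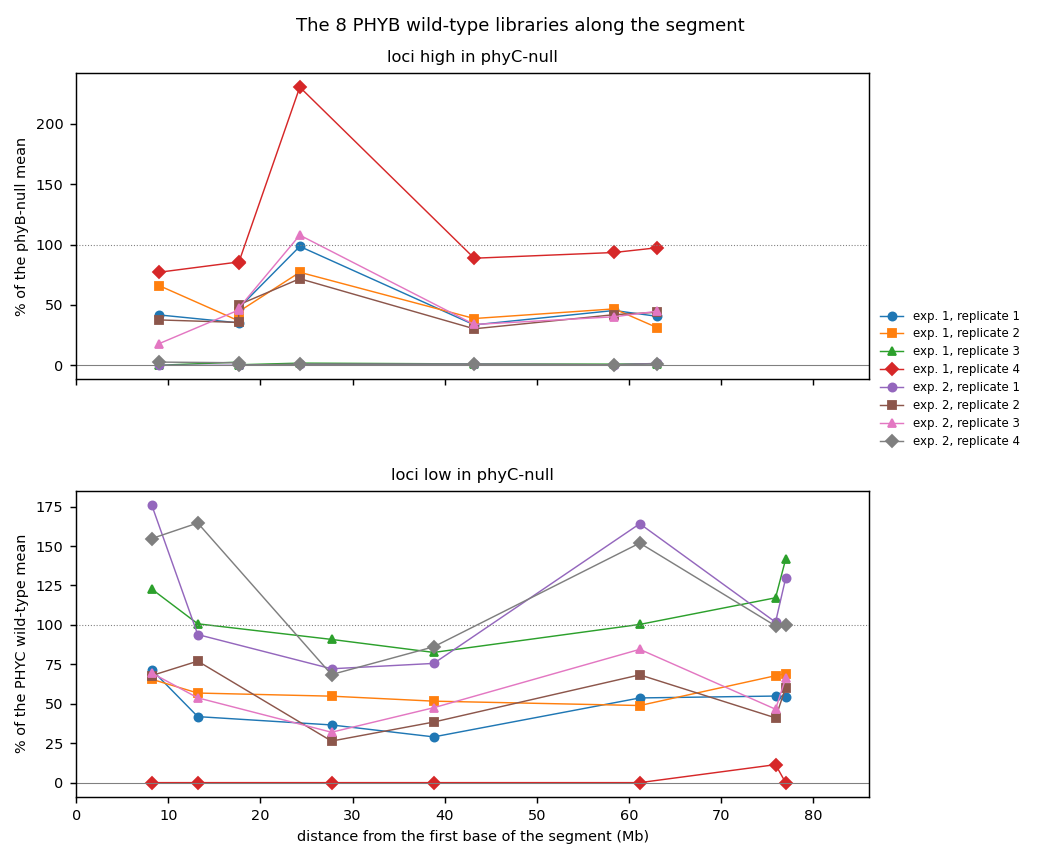
Level of each of the 8 PHYB wild-type libraries along the segment, against distance from its first base in Mb, as a percent of the phyB-null mean at the 7 loci high in phyC-null (above) and of the PHYC wild-type mean at the 7 loci low in phyC-null (below); each line is a library. Experiment 1 replicate 4 has medians of 88.7% above and 0% below. Experiment 1 replicate 3 and experiment 2 replicates 1 and 4 have medians of 0.325% to 1.09% above and 99.99% to 102% below. The other 4 have medians in between, but at single loci they run from 17.9% to 108% above and 26.3% to 84.5% below.

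The 3 loci of the rest of chromosome 1B that met the definition did not divide the PHYB wild-type libraries in this way. All 3 lay from 130 to 140 Mb from the first base of the segment. Traes_1BL_B1C10EA93, low in phyC-null, was at 0% to 0.162% of the PHYC wild-type mean in the 8 PHYB wild-type libraries. The phyB-null libraries were likewise low there, at 0.045% to 0.267%. td-k45_contig_46252 was at 88.6% to 123% of the phyB-null mean in every PHYB wild-type library, and td-k35_contig_5600 at 53.8% to 112%. Both are high in phyC-null, and their phyB-null means were 296 and 135. At none of the 3 loci was any PHYB wild-type library near 0 while another was near 100%.

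Some members showed the same library pattern without meeting the definition. td-k45_contig_63519 (1B, 162522318 to 162524054) had 0 in 7 of 8 phyC-null libraries and 0.966 in the eighth, against 5.96 to 21.7 in PHYC wild type, and among PHYB wild-type libraries only experiment 1 replicate 4 had 0. contig55235 (1B, 197913971 to 197915439) had 0 in every phyC-null library, against 12.3 to 50.04 in PHYC wild type, and again 0 in experiment 1 replicate 4 of PHYB wild type. At td-k35_contig_79481 that library had 1.27 and the other PHYB wild-type libraries 12.3 to 80.5. td-k51_contig_86488 averaged 5.31 ± 2.04 in phyC-null, against 47.8 ± 9.56 in PHYC wild type, and 1.11 ± 1.20 in phyB-null, against 19.0 ± 10.2 in PHYB wild type (SD, n = 8 each). On the log2 scale its PHYB wild-type experiment 1 replicates 1 and 4 and experiment 2 replicate 2 were nearer to phyC-null than to PHYC wild type.

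One locus followed the pattern in the PHYB lines and in 1 PHYC experiment but not in the other. td-k35_contig_69430 (1B, 163890973 to 163893123) had 121, 113, 79.6 and 80.2 in phyC-null in experiment 1, but 2.49, 1.39, 0 and 0 in phyC-null in experiment 2. PHYC wild type had 0 to 2.43 in all 8 libraries. In PHYB wild type it had 383, 183, 5.24 and 386 in experiment 1 and 7.57, 174, 213 and 2.77 in experiment 2, so that the 3 lowest libraries were those near 0 at the 7 high loci, while replicate 1 of experiment 1 was as high as replicate 4. Counts of experiment 2 were too low for it to be tested there.

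By the call rule used across all loci, an adjusted P under 0.01, 65 of 930 members tested differed between phyC-null and PHYC wild type in experiment 1 and 54 of 913 in experiment 2. The background over all loci was 1.64% in experiment 1 and 1.04% in experiment 2. In both experiments and in the same direction 39 of 895 members were called, beside 0.472% of all loci, and since the place of the segment may have been chosen on this contrast nothing is read from the difference. Of the 39, 16 were higher in phyC-null (background 0.245%) and 23 were lower (background 0.227%). On the rest of chromosome 1B, 10 of 2692 loci were called in this way. Of these, 5 higher and 1 lower lay from 130 to 140 Mb from the first base of the segment. There 137 loci were tested, and the share called was 4.38%. On unplaced 1B scaffolds 23 of 1072 loci were called, or 2.15%.

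Called members lay in every 10 Mb bin of the segment, as a share of 2.78% to 7.14% of the loci tested. The first along the chromosome was td-k31_contig_3423, at 124463851 to 124466081, with means of 45.0 ± 6.91 in phyC-null and 11.3 ± 3.31 in PHYC wild type (SD, n = 8 each). The last was Traes_1BL_4FD5BD211, at 207382580 to 207386741, which is the last member of the segment. It averaged 1287 ± 155 in phyC-null, against 2461 ± 254 in PHYC wild type. Outside the segment the nearest called loci were Traes_1BS_58B4D7271, at 112473221 to 112476266, and Traes_1BL_D4840E036, at 251644150 to 251647314. No locus was called in both phyC experiments in the 5 bins between the last member and 130 Mb from the first base of the segment. The first member, Traes_1BS_B99F5983F, had 73.2 ± 23.0 in phyC-null and 72.3 ± 13.8 in PHYC wild type. Just outside the start lay Traes_1BS_DEF7391BE, with means of 1.32 in phyC-null and 1.13 in PHYC wild type, and just outside the end lay td-k45_contig_55907, with 6.84 in phyC-null and 4.21 in PHYC wild type.

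**Figure D3:**
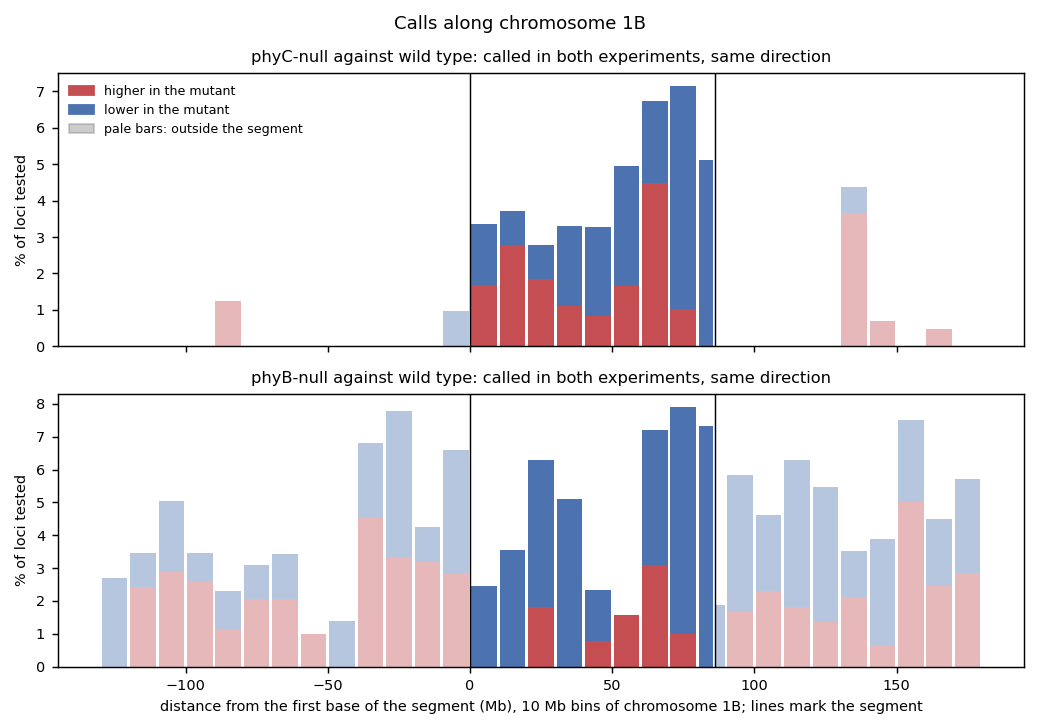
Share of loci tested that were called in both experiments in the same direction (adjusted P under 0.01), in 10 Mb bins of chromosome 1B counted from the first base of the segment, for phyC-null (above) and phyB-null (below) against their wild types; red is higher and blue lower in the mutant, pale bars are outside the segment and the 2 vertical lines are its ends. For phyC-null the bins of the segment hold 2.78% to 7.14%, the bins next to it 0.98% and 0%, and all bins outside 0% to 4.38%. The highest of those outside lies from 130 to 140 Mb. For phyB-null the bins hold 1.56% to 7.92% inside and 0.99% to 7.78% outside.

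The 39 members called in phyC-null were also read in the PHYB lines, which have their own controls. In 38 of the 39 the phyB-null mean differed from PHYB wild type in the same direction as phyC-null from PHYC wild type. For loci outside the segment called in both phyC experiments this held for 197 of 304, and for all detected loci, called or not, for 62.8%. The exception was contig52217, with means of 35.0 in phyC-null, 125 in PHYC wild type, 251 in phyB-null and 99.4 in PHYB wild type. On the log2 scale 37 of the 39 phyB-null means were nearer to phyC-null than to PHYC wild type. No such count is given here for called loci outside the segment, so it is not read as particular to the members. Single PHYB wild-type libraries differed widely in this: experiment 1 replicate 4 was nearer to phyC-null at 34 of 39 loci, experiment 1 replicate 3 at 1, experiment 2 replicates 1 and 4 at 2 and 3, and the other 4 at 12 to 22. These counts were not tested, since the loci were chosen on the PHYC lines.

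**Figure D4:**
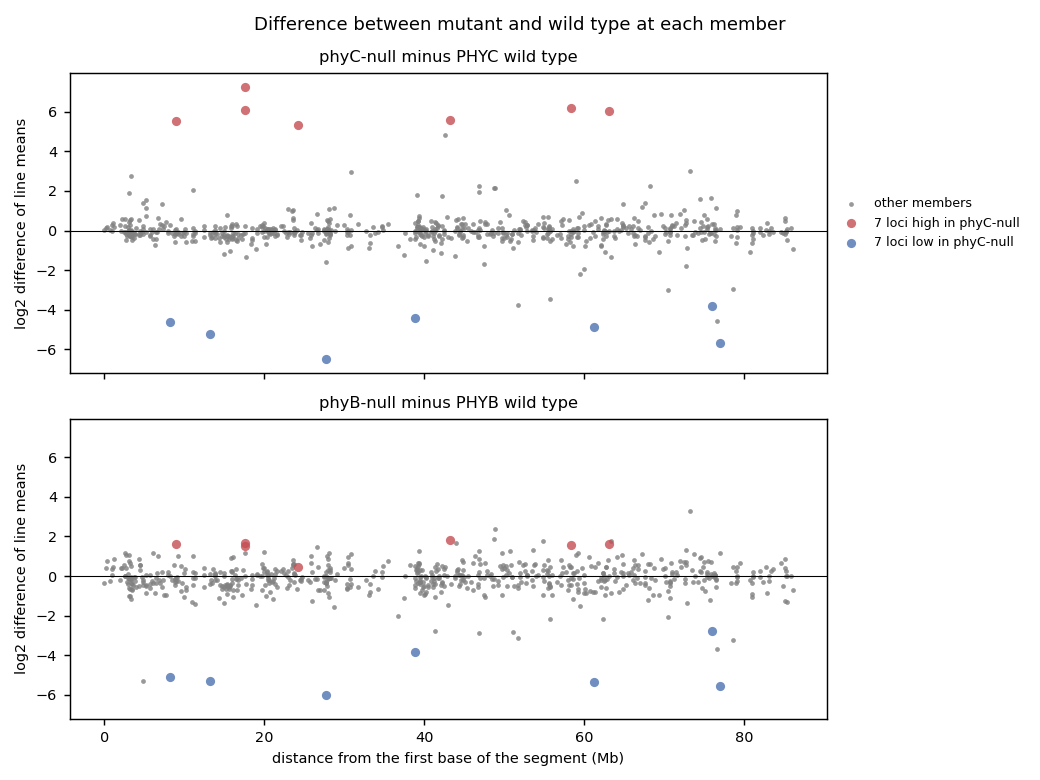
Difference between lines in log2 of the line's mean normalized count plus 1, at the 677 members whose highest line mean is at least 20, against distance from the first base of the segment in Mb, for phyC-null minus PHYC wild type (above) and phyB-null minus PHYB wild type (below); each point is a locus. The 7 blue loci are low in both mutants, and the 7 red loci are higher by 5.34 to 7.25 in phyC-null and by 0.44 to 1.80 in phyB-null; with log2 taken in each library before averaging, the same loci were higher by 5.47 to 7.47 in phyC-null and by 2.13 to 3.69 in phyB-null.

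Most members differed little between lines. Over all 1022 members the median absolute difference between lines in log2 of the mean normalized count plus 1 was 0.26 between phyC-null and PHYC wild type, beside 0.24 over all loci of the series. Between phyB-null and PHYB wild type it was 0.37, beside 0.34 over all loci, and between PHYC wild type and PHYB wild type 0.32, beside 0.34. These medians were not tested.

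Expression along the segment by line was likewise similar. Median normalized counts per 10 Mb bin were highest from 20 to 30 Mb from its first base, at 85.9 in phyC-null, 83.1 in PHYC wild type, 88.3 in phyB-null and 83.5 in PHYB wild type (medians over 8 libraries each). They were lowest from 30 to 40 Mb, at 24.2 in phyC-null, 24.6 in PHYC wild type, 19.7 in phyB-null and 20.3 in PHYB wild type. In each of the 9 bins the range over the 8 libraries of each mutant overlapped that of its wild type.

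Between phyB-null and PHYB wild type, 88 of 955 members were called in experiment 1 (background 9.41%) and 150 of 973 in experiment 2 (background 11.6%). In both experiments and in the same direction 42 of 939 were called, or 4.47%, which is close to the background of 5.01% over all loci. Of these, 9 were higher in phyB-null, or 0.958% beside a background of 2.13%, and 33 were lower, or 3.51% beside a background of 2.89%. Without PHYB wild-type experiment 1 replicate 4 the count was 49. Other single libraries moved it further: it was 25 without PHYB wild-type experiment 1 replicate 1, and 13, 27, 16 and 14 without phyB-null experiment 1 replicates 1, 2, 3 and 4. Over all loci, experiment 1 alone had 3236 calls higher and 4412 lower in phyB-null. These were 3005 and 4108 without wild-type replicate 4, and 2286 and 3381 without wild-type replicate 1. Without phyB-null replicates 1, 2, 3 and 4 they were 1827 and 2406, 2606 and 3656, 1822 and 2173, and 1900 and 2496.

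All 7 loci that were low in phyC-null were among the 33 lower in phyB-null, and none of the 7 high in phyC-null was called in either phyB experiment, although 1 passed in experiment 2 without PHYB wild-type replicate 2 of that experiment. td-k63_contig_81171 fell, with log2 changes of -5.80 ± 1.02 in experiment 1 (SE, adjusted P = 0.00226, edgeR) and -6.05 ± 0.42 in experiment 2 (adjusted P = 8.47e-06). Traes_1BL_355420E27, with 573 to 875 in phyB-null, against 9.02 to 707 in PHYB wild type, had adjusted P of 0.299 in experiment 1 and 0.0708 in experiment 2. In experiment 1 the number of the low loci that passed was 1 or 2 of 7 when any phyB-null library of that experiment was left out, and 2 to 4 when PHYB wild-type replicate 1, 2 or 3 was, and it stayed at 7 without replicate 4. Experiment 2 kept all 7 whichever library was left out. In these fits the groups were of 4 libraries whose wild types differed among themselves as described above.

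Other members were called in phyB-null where the PHYB wild-type libraries did not divide in that way. Traes_1BL_F75DAB5B1 had 36.5 to 68.5 in phyB-null, against 4.16 to 27.0 in PHYB wild type, with no overlap, and rose by 1.57 ± 0.33 on the log2 scale in experiment 1 (SE, adjusted P = 0.0061, edgeR) and by 2.44 ± 0.30 in experiment 2 (adjusted P = 0.00029). This locus was also past the call rule in phyC-null experiment 1, higher by 2.35 to 2.72 with single libraries left out. It was not called in phyC-null experiment 2. Traes_1BL_F3BEF57B3 had 31.6 to 61.3 in phyB-null, against 2.84 to 27.0 in PHYB wild type. Traes_1BL_BEB428D511 and Traes_1BL_FD25E32FE also rose in both experiments, the first averaging 148 ± 23.4 in phyB-null, against 67.1 ± 18.1 in PHYB wild type, and the second 167 ± 39.2, against 73.9 ± 39.2 (SD, n = 8 each). td-k55_contig_64442, a predicted protein of no stated role, also rose, with 2.94 to 17.9 in phyB-null, against 0 to 1.53 in PHYB wild type. The same transcript also defines a locus on an unplaced 1AL scaffold, which averaged 6.13 in phyB-null, against 0.572 in PHYB wild type, and was likewise called higher in both experiments.

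In total 14 of the 38 phyC-called members that were tested in both phyB experiments were also called there, 13 lower and 1 higher, which compares with 108 of 286 phyC-called loci outside the segment. Of those 108, 38 were higher in phyB-null and 70 lower. Of the 880 members tested in both experiments of each mutant, called in phyC-null or not, 8 were called higher in phyB-null and 33 lower. The 1 member called higher in both mutants was Traes_1BL_1D19EF255, with 163 ± 35.3 in phyB-null, against 72.8 ± 23.0 in PHYB wild type, and 111 ± 30.4 in phyC-null, against 51.2 ± 16.5 in PHYC wild type. Among those lower in both, Traes_1BL_5EBE999F6 had 32.4 to 61.8 in phyB-null, against 79.0 to 340 in PHYB wild type, and 16.9 to 42.3 in phyC-null, against 168 to 280 in PHYC wild type. td-k63_contig_20505 averaged 34.5 ± 6.33 in phyB-null, against 74.1 ± 16.1 in PHYB wild type, and 32.05 ± 8.59 in phyC-null, against 77.9 ± 6.27 in PHYC wild type. Traes_1BL_4FD5BD211, the last member, had 1328 to 1873 in phyB-null, against 1862 to 2791 in PHYB wild type, the ranges overlapping by a small margin.

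Descriptions were in hand for 10 members, from the study's gene tables, which were used here only in part, so that other members may have one there. The tables were drawn up on these same samples, so their direction is not independent evidence. Traes_1BL_7905E5D6E, annotated as an AMP deaminase, an enzyme of purine metabolism, had 65.3 to 89.1 in phyB-null, against 134 to 200 in PHYB wild type, and fell, with log2 changes of -1.15 ± 0.16 in experiment 1 (SE, adjusted P = 0.00051, edgeR) and -0.97 ± 0.14 in experiment 2 (adjusted P = 0.000915). Traes_1BL_D931EA570, a tricorner-like serine/threonine protein kinase, had 13.3 to 40.2 in phyB-null, against 33.1 to 156 in PHYB wild type. Its log2 changes were -2.64 ± 0.29 in experiment 1 (adjusted P = 8.48e-05) and -1.56 ± 0.31 in experiment 2 (adjusted P = 0.0048). With td-k55_contig_64442 these were the 3 of the 10 called in both phyB experiments.

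The other 7 described members passed in phyB experiment 1 and not in experiment 2. Traes_1BS_7EC2BDE95, a soluble starch synthase III, an enzyme that extends glucan chains in starch, had a log2 change of -3.21 ± 0.32 in experiment 1 (SE, adjusted P = 5.32e-05, edgeR), and its change in experiment 2 was -1.19 ± 0.38 (adjusted P = 0.0435). Traes_1BL_8F00448BE, a receptor-like protein kinase, had 4.32 to 9.47 in phyB-null, against 11.8 to 113 in PHYB wild type. Traes_1BL_714F4E4AC, a carotene epsilon-monooxygenase of the chloroplast, an enzyme of lutein synthesis, had 611 to 856 in phyB-null, against 788 to 1887 in PHYB wild type. Traes_1BL_83B495A4A, described only as a chloroplastic protein, averaged 1014 ± 134 in phyB-null, against 1892 ± 499 in PHYB wild type, and Traes_1BL_C80BB3B0D, with a heavy-metal-associated domain, averaged 42.6 ± 7.26, against 92.2 ± 18.4 (SD, n = 8 each). Traes_1BL_58379F3C5, remorin-like, of a family of plant plasma membrane proteins, rose by 1.69 ± 0.25 in experiment 1 (adjusted P = 0.00066), and in experiment 2 it had a change of 0.08 ± 0.25 (adjusted P = 0.869).

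Traes_1BS_91DEF138E, a glycerophosphoryl diester phosphodiesterase, which breaks down products of phospholipid turnover, varied with experiment, with 38.6 to 58.7 in experiment 1 and 5.86 to 40.3 in experiment 2 in phyC-null, against 20.3 to 190 and 6.06 to 33.2 in PHYC wild type. It was higher in phyB-null in experiment 1 by 1.05 ± 0.24 on the log2 scale (SE, adjusted P = 0.0099, edgeR), and in experiment 2 by 0.87 ± 0.47, which did not pass (adjusted P = 0.216). A microRNA locus of the segment, EPlTAEG00000007534, is 125 bases long and averaged 1.04 in phyC-null, against 1.30 in PHYC wild type, and 0.871 in phyB-null, against 0.950 in PHYB wild type. At that depth no difference between lines was detectable.

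Lines were also compared across runs. PHYC wild type differed from PHYB wild type at 203 of 1022 members (background 17.9%), and phyC-null from phyB-null at 284 (background 25.1%), and in both comparisons line and run cannot be told apart. Among the members farthest apart was Traes_1BL_ACE9E7BF8, which was low in both PHYB lines. It had 110 to 438 in phyC-null, against 7.47 to 12.7 in phyB-null, and 116 to 268 in PHYC wild type, against 2.77 to 7.56 in PHYB wild type, with no overlap in either pair. It was picked for these levels, so no test is given.

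Counting loci at which any line averaged at most 5% of the highest line, with at least 50 in the highest, gave 17 members, beside a background of 0.496% of all loci. PHYC wild type alone was low at 9, both nulls at 4, phyB-null alone at 3, and both PHYB lines at 1, which is Traes_1BL_ACE9E7BF8. Of the 17, 11 are among the 14 contrasting loci. Another, Traes_1BL_262B745D1 (1B, 126156092 to 126158324), varied most between experiments. Its phyC-null libraries had 25.5 to 68.6 in experiment 1 and 1972 to 6352 in experiment 2, against 31.0 to 92.2 and 596 to 2548 in PHYC wild type. In phyB-null it had 4.35 to 14.7, while PHYB wild-type libraries ran from 8.92 in experiment 1 replicate 4 to 1202 in experiment 2 replicate 1. Traes_1BL_5C767DAD9 had 0 to 4.47 in phyB-null, against 1.23 to 60.6 in PHYB wild type.

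The interaction of genotype with experiment was called at 1 of 958 members in the PHYC lines (background 0.0172%) and at 0 of 998 in the PHYB lines (background 0.00458%), by edgeR. At an unadjusted P under 0.05 there were 109 of 998 in the PHYB lines, beside 9166 of 87262 over all loci. DESeq2 called 5 of 958 in the PHYC and 2 of 997 in the PHYB lines. Over all loci it called 103 up and 51 down of 81507 in the PHYC lines. In the PHYB lines it called 238 up and 156 down of 87210. The PHYC counts are a description, as above. The PHYC call was Traes_1BS_C012FD5DC (1B, 152145370 to 152148990), named after its value was seen. Its phyC-null libraries had 275, 398, 396 and 347 in experiment 1, against 17.2 to 25.8 in PHYC wild type. In experiment 2 the phyC-null libraries had 29.9, 23.7, 32.2 and 19.5, against 19.9 to 27.3 in PHYC wild type, and the ranges overlapped.

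For transcript contigs the mapping could place 1 transcript on an A and on a B arm, and 159 members share their transcript name with a locus elsewhere, 46 of them on 1A. Reads reached the series minimum at 89 of these other loci. Of the 14 contrasting loci 3 have such a partner, and the partners were at or near 0 in every line: that of td-k55_contig_23045 on 2A averaged 0.314 to 1.39 by line, that of td-k41_contig_25101 on 4A 0.0845 to 0.339, and that of td-k25_contig_29638_td-k51_contig_31611, on an unplaced 7AL scaffold, was at 0 in all lines. The partner of td-k45_contig_63519 on 3A averaged 8.58 in phyC-null, against 10.5 in PHYC wild type, and 7.67 in phyB-null, against 9.45 in PHYB wild type, and was not called in either mutant.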

How the data were processed

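Raw read counts per locus were deposited by the authors for 32 libraries. Per the study's methods, 50 bp single-end reads were mapped with GSNAP to the A and B arms of a Chinese Spring draft assembly (IWGSC 2.2) with up to 2 mismatches, and reads of mapping quality 40 or more were counted with HTSeq. A count therefore depends on the transcript level and on how well Kronos reads align, which were not separated. No genome sequence was used here.

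Counts were tested with edgeR 4.0.16 (quasi-likelihood, RLE factors, a minimum of 3 reads in 2 libraries of a fit, Benjamini-Hochberg over all loci, threshold 0.01), by experiment for each mutant, over 32 libraries between PHYC and PHYB lines, and for interactions over the libraries of a mutant and its control. The SE of an edgeR change was taken as the absolute log2 change over the square root of the test's F statistic, and is approximate. The code was tested on simulated data. Alternatives were DESeq2 1.42.0, TMM factors, other filters and thresholds, a replicate block and left-out libraries. The members, lists and definitions were chosen with earlier results of these data known. Named were loci with a description in the parts of the study's tables used here, near 0 in a line (the 5 highest for each pattern), at the ends, the 5 most abundant, the 5 largest changes each way in both experiments of a mutant, those called in both mutants, and, chosen after their values were seen, the contrasting loci and single exceptions.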

Additional observations from a re-analysis of the deposited data

Results flagged for a closer look

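Values in groups of 4 libraries were examined at 296 group and locus combinations, for the library farthest from the other 3, and 16 stood apart, or 5.41%, where chance gives about 1 in 20. In phyB-null experiment 2 these were td-k45_contig_45148 in replicate 2 (197, the others 130 to 136), td-k63_contig_20505 in replicate 3 (26.4, the others 36.5 to 36.8), Traes_1BL_EC3E899FE in replicate 1 (14572, the others 10285 to 10596) and Traes_1BL_4FD5BD211 in replicate 2 (1453, the others 1328 to 1340). In PHYB wild-type experiment 1, replicate 3 stood apart at Traes_1BL_262B745D1 (925, the others 8.92 to 148), and replicate 4 at Traes_1BL_6357FA4B9 (10633, the others 8460 to 8813), Traes_1BL_EC3E899FE (29528, the others 14475 to 16565) and Traes_1BL_58379F3C5 (321, the others 157 to 183). The share of library reads on the segment was 1.01% in PHYB wild-type experiment 2 replicate 2, the others 0.964%. In phyC-null, td-k55_contig_9130 had 3399 in experiment 1 replicate 1, td-k31_contig_45232 had 23.4 in experiment 2 replicate 4 and td-k63_contig_20505 had 32.4 in experiment 2 replicate 1. In PHYC wild type, td-k63_contig_20505 had 83.8 in experiment 1 replicate 4, Traes_1BL_714F4E4AC had 2120 in experiment 1 replicate 2, and Traes_1BS_C012FD5DC had 19.9 and Traes_1BL_5C767DAD9 had 71.9 in experiment 2 replicate 2.

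At Traes_1BS_C012FD5DC the log2 difference between phyC-null and PHYC wild type changed by -3.86 ± 0.29, experiment 2 minus experiment 1 (SE), and was past the call rule for the interaction. Like the other values of these lines it is a description. The cause was not tested.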

How the results depend on the processing

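None of the 106 log2 changes of named loci past the threshold reversed its direction in 1166 alternative values, that is, each change under each alternative setting. The changes had been kept for passing the threshold, so few reversals could occur. Other filters were not compared for these changes, and counts, medians and levels were checked only for size. The count of members called in phyC-null experiment 1, 65, was 109 with DESeq2, 118 at an adjusted P of 0.05, and 35 to 106 when single libraries were left out, and that of experiment 2, 54, was 34 to 43. For phyB-null experiment 1 the count of 88 was 143 with DESeq2, 202 at 0.05, 49 with a 2-fold minimum and 34 to 89 with single libraries left out. All loci gave 3236 calls higher and 4412 lower there. With DESeq2 these were 4834 and 6495, at 0.05 7543 and 8613, and with the 2-fold minimum 2277 and 2505. For phyB-null experiment 2 the count of 150 was 302 at 0.05, 87 with the 2-fold minimum and 70 to 177. All loci gave 4819 calls higher and 4726 lower there, 9652 and 9533 at 0.05, and 3347 and 2236 with the 2-fold minimum. They gave 5907 and 5231 without wild-type replicate 2, and 2684 and 2274 without phyB-null replicate 4. The 42 called in both phyB experiments were 81 with DESeq2, 75 with no filter, 129 at 0.05, 21 with the 2-fold minimum and 13 to 53, and the 39 in both phyC experiments were 27 to 45. For calls in both experiments, counts over all loci under these settings are not given here. Between wild types the count of 203 was 335 at 0.05 and 130 to 160 without 1 replicate number, and between nulls it was 191 to 220. All loci gave 8115 calls higher and 8097 lower in PHYC wild type, and 12455 and 12822 at 0.05. These were 5554 and 5245 without replicate 2, and 5950 and 5704 without replicate 3. Between nulls all loci gave 11560 calls higher and 11133 lower in phyC-null, 9713 and 8869 without replicate 2, and 8305 and 7859 without replicate 3. Interactions by DESeq2 numbered 5 in the PHYC and 2 in the PHYB lines. The 17 loci near 0 in a line were 11 with a minimum of 100 and 15 to 18 without 1 replicate number, and the 14 contrasting loci were 9 with a minimum of 50.

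With a replicate block the counts were 40 for phyC-null experiment 1, 34 and 86 for phyB-null experiments 1 and 2, 14 for both phyB experiments and 26 for both phyC experiments. Over all loci the block gave 343 calls higher and 399 lower for phyC-null experiment 1. For phyB-null it gave 1494 and 1928 in experiment 1 and 3110 and 2701 in experiment 2. Correlations of same-numbered libraries ran from -0.41 to 0.18, so no pairing by number was seen. These values cannot settle whether samples were paired. Of 106 log2 changes of named loci past the threshold, 71 stayed past it whichever library was left out, and 19 were lost with the block. Relative to library totals, RLE factors shifted log2 changes by -0.36 and -0.07 in the phyC experiments and -0.31 and -0.26 in the phyB experiments. With library totals the level at the loci low in phyC-null was 67.7% in PHYB wild-type experiment 1 replicate 2, and 80.9% and 159% in experiment 2 replicates 2 and 4. Loci with few reads limit what could be seen: 38 members averaged under 1 normalized count. The causes of these shifts were not tested.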

Other observations

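Scaffolds of the 1BS and 1BL arms that have no place on the assembled chromosome carry 1379 loci with enough reads, and 7 of them met the definition of the contrasting loci, a count made after the values were seen. The 3 that were high in phyC-null were near 0 in the same 3 PHYB wild-type libraries as the members: in experiment 1 replicate 3 and experiment 2 replicates 1 and 4, td-k21_contig_37574 and Traes_1BL_D34C62E8F were at 0% of the phyB-null mean and td-k31_contig_38235 was at 0.434% to 1.03%. In the other 5 PHYB wild-type libraries td-k21_contig_37574 had 53.3% to 83.2%, Traes_1BL_D34C62E8F had 30.0% to 45.3% and td-k31_contig_38235 had 61.4% to 152%. Of the 4 that were low in phyC-null, td-k21_contig_62148 and td-k45_contig_49294 had 0% and 4.47% of the PHYC wild-type mean in PHYB wild-type experiment 1 replicate 4, and 40.6% to 171% in the other 7. The remaining pair did not divide the libraries: contig80667 had 112% to 149% and td-k41_contig_82766 had 0% to 4.36% in all 8. In phyB-null, contig80667 had 114% to 141% of the PHYC wild-type mean, so there phyB-null was not on the side of phyC-null. The phyB-null libraries had 0% to 5.17% at td-k21_contig_62148, td-k45_contig_49294 and td-k41_contig_82766. Whether these scaffolds belong to the segment was not tested.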
